A study of Mus musculus with 8 samples.

Results

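The comparison was between cKO and WT pancreas after saline, the baseline of a study of fatty acid ethyl ester severe acute pancreatitis (FAEE-SAP). It rested on 4 of the 8 RNA-Seq libraries of the series, 2 from cKO mice and 2 from WT mice, which were taken by their labels. All mice were 8-week-old males injected with saline and sampled 24 hours later, and the study's methods describe fasting before injection. cKO mice were *Pfkfb3* fl/fl; *Pdx1*-Cre, so they carried LoxP sites on both *Pfkfb3* alleles and a Cre transgene driven by the promoter of *Pdx1*, a gene expressed in the pancreatic epithelial lineage during development, and the floxed mice were made on C57BL/6J. WT mice were bought from a commercial supplier, and the sources used here do not describe them as littermates of cKO mice. The loss of exons, the LoxP sites, the Cre transgene, and any difference in substrain or housing therefore came together in these libraries and cannot be told apart. The other 4 libraries were from WT and cKO mice given palmitoleic acid and ethanol (FAEE-SAP), and they were used to ask whether a baseline value was also seen there and in models of all 8 libraries, with a test of the genotype difference between treatments. No source states that a library is 1 mouse, so the spread between 2 libraries may be partly technical.

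PFKFB3 is one of a family of enzymes that make and remove fructose-2,6-bisphosphate, the strongest activator of the glycolytic enzyme phosphofructokinase. It has a high kinase activity and is induced by hypoxia and by inflammatory signals. Most of the exocrine pancreas is made of acinar cells, which synthesize, store, and secrete digestive enzymes as inactive precursors. Their RNA is dominated by a small number of enzyme messages, and the islets, ducts, vessels, and resident immune cells contribute the rest.

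Recombination in cKO mice removes exons 2 and 3 of *Pfkfb3*. Both are wholly coding in the annotated 15-exon transcript Pfkfb3-206 of GENCODE on GRCm38, and together they hold 223 bases, which leaves 1 base over after whole codons. Both are printed in full in lower case, since they are the segment that separates the genotypes and no part of them is singled out.
Exon 2, chr2:11493903-11494028, minus strand: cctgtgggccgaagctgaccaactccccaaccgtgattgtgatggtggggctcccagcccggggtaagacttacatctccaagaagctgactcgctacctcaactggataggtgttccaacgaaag
Exon 3, chr2:11492560-11492656, minus strand: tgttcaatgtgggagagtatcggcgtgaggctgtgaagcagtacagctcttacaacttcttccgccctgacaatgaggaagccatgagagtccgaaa
The deposited values are 1 number per gene over all exons, so they cannot show whether these 2 exons were lost. *Pfkfb3* (chr2:11471433-11554077, minus strand) was measured first. Its scaled RPKM, reads per kilobase of exon relative to the reads of the library, after scaling of the 4 libraries to each other, was 1.21 and 1.24 in the WT libraries and 0.625 and 1.49 in the cKO libraries. One cKO library lay below both WT libraries and the other lay above them, so the groups overlapped. The log2 difference (cKO minus WT) was -0.31 (SE 0.40, 95% interval -1.33 to 0.72, adjusted p = 0.999 by limma, Benjamini-Hochberg), and it was 0.26 without cKO saline 1. Of the other 4 genes of the *Pfkfb* list, only *Pfkfb2*, which encodes the isoenzyme typical of heart, passed the filter of RPKM 0.5 in 2 libraries. The WT libraries were at 0.899 and 0.576 and the cKO libraries at 0.688 and 0.911, with a log2 difference of 0.12 (SE 0.28). The deposited RPKM of *Pfkfb1*, *Pfkfb4*, and *Tigar*, whose product removes fructose-2,6-bisphosphate, was at most 0.0793, 0.188, and 0.450 in these libraries.

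The 4 libraries held 27.3 M to 37.7 M reads, worked out from the steps between low RPKM values, and 1 read on a 2 kb message was worth an RPKM of 0.0133 to 0.0183. Between 59.6% and 65.0% of the reads in a library belonged to 10 genes. Libraries were not most alike within a genotype. Across genes, Pearson's r of log2 values was 0.972 between WT saline 1 and cKO saline 2 and 0.969 between WT saline 2 and cKO saline 1, against 0.960 between the WT libraries and 0.949 between the cKO libraries. The markers fitted a pancreas, with all 13 acinar markers tested and *Ins2*, which encodes insulin, at 118 and 106 in WT and 138 and 111 in cKO. Of 11 neutrophil markers, only 1 passed the filter. cKO saline 1 also held messages of intestine and liver. *Fabp2*, an intestinal fatty acid binding protein gene, was at 6.30 and *Cyp3a11* at 2.79 in that library, and both were at 0 in the other 3. The 8 markers of intestine and liver summed to 20.5 there and to 0.457 to 0.832 elsewhere. Hemoglobin and other red blood cell messages also differed most within cKO, with a summed scaled RPKM of 242 in cKO saline 1 and 48.0 in cKO saline 2.

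The baseline order of the most abundant transcripts was the same in outline in all 4 libraries. The 25 genes with the highest mean scaled RPKM took 87.7% to 90.0% of the summed RPKM, and all 25 were among the 25 highest in every library. *Ctrb1*, which encodes chymotrypsinogen B, was first in 3 libraries and *Amy2a1*, a pancreatic amylase gene, was first in cKO saline 1. *Ctrb1* was at 58769 and 48708 in WT and 64539 and 73561 in cKO. *Amy2a1* was at 58331 and 48706 in WT and 70038 and 67998 in cKO. Both cKO libraries lay above both WT libraries for each gene. Next came the trypsinogen gene *Try4* (45064 and 33429 in WT, 47845 and 52421 in cKO), which held rank 3 in every library. *Prss2*, another trypsinogen gene, and *Cela1*, an elastase gene, held places 4 and 5 in each library, with *Cela1* above *Prss2* in cKO saline 1 only.

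Below these, neighbors in the order were often within the spread of the libraries. Of the 24 pairs of neighbors, 11 were in the same order in all 4 libraries. The 4 genes *Amy2a2*, *Amy2a3*, *Amy2a4*, and *Amy2a5* stood within a few percent of each other in each library, and as near-identical copies they may share reads, so their separate levels are uncertain. *Clps* (colipase, a cofactor of pancreatic lipase) was 13th and *Cpa1* (carboxypeptidase A1) 14th in every library. The widest move was that of the trypsinogen gene *Try5*, which ranked 8th and 12th in WT and 12th and 6th in cKO. *Cel*, which encodes carboxyl ester lipase, an enzyme that can also form fatty acid ethyl esters, ranked 19th and 15th in WT and 15th and 19th in cKO. Spearman's rho of the ranks ran from 0.967 to 0.994 over the 6 pairs of libraries, and the highest values were again those between WT saline 1 and cKO saline 2 (0.994) and between WT saline 2 and cKO saline 1 (0.992).

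**Figure D1:**
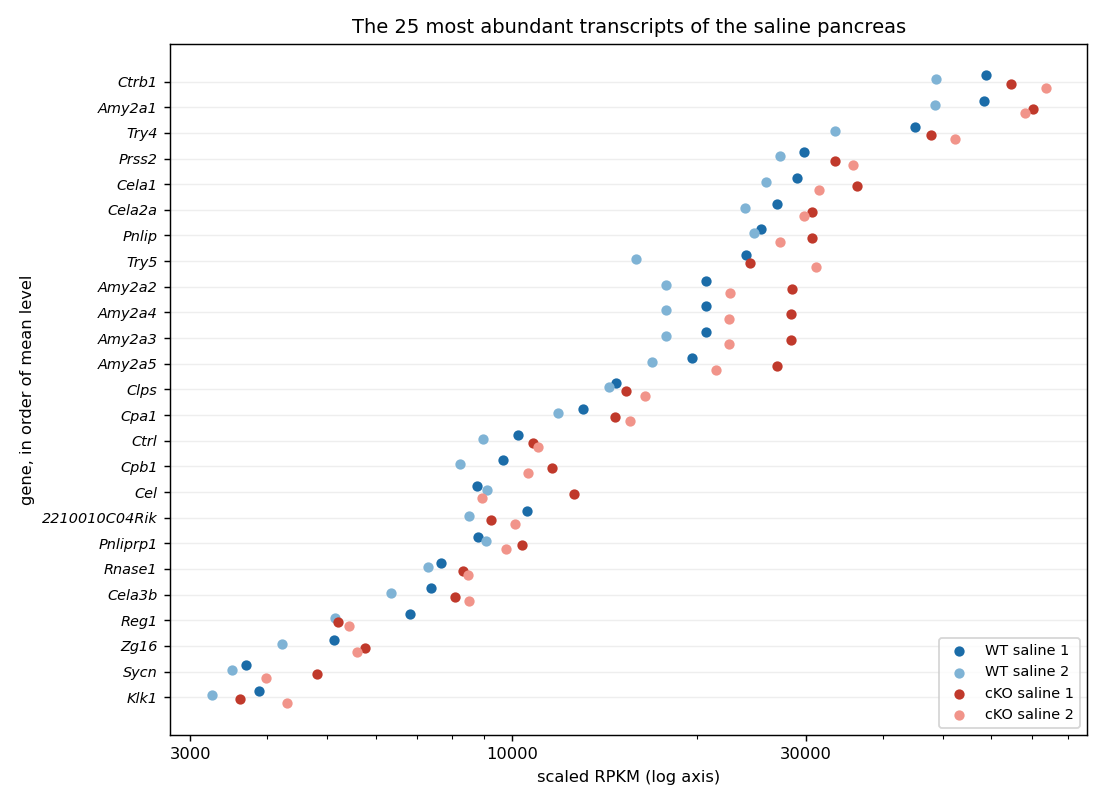
Scaled RPKM on a log axis for the 25 most abundant genes, in order of their mean level, with 1 point per saline library (blue for WT, red for cKO). *Ctrb1* and *Amy2a1* lead in every library, and 21 of the 25 genes have both cKO points to the right of both WT points after scaling.

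After scaling, 24 of the 25 genes had a higher mean in cKO, with a median log2 difference of 0.28 and a range of -0.16 to 0.49, while the median over all 8715 genes tested was 0.01. The cKO and WT libraries did not overlap for 21 of them, all higher in cKO, against 13.7% of all genes tested. None was called. *Amy2a1* alone had an unadjusted p under 0.05, as did 1.1% of all genes in the same direction, and its log2 difference was 0.37 (SE 0.13, adjusted p = 0.999 from limma). In bulk tissue, fewer cells of a type and less RNA per cell cannot be told apart. The sign depended on the scaling. With the RPKM as deposited, 13 of the 25 genes had a higher mean in cKO and the median difference was 0.00, while the median of all genes was -0.25. The median of the 25 was thus above that of all genes both ways. With quantile normalization, 10 of the 25 were higher and 14 lower. These genes are the 25 highest in every library, so this normalization gives them the same set of values in each and cannot show a shared shift. The 1 gene of the 25 that was lower in cKO was *Reg1* (6830 and 5158 in WT, 5211 and 5442 in cKO), and its libraries overlapped. The interval of every difference among the 25 lay between -0.61 and 1.13.

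The digestive enzyme lists are not a separate result, since all of the 25 genes but *Reg1*, *Zg16*, and *Sycn* are among their members. All 34 tested members of 4 lists had a positive log2 difference after scaling with all 4 libraries, against 52.3% of all genes tested, and 0 were called. The members positive were 18 of 34 with the RPKM as deposited, where the median over all genes was -0.25 against 0.01 after scaling. They were 19 of 34 with quantile normalization, which gives the 25 most abundant genes the same set of values in every library and cannot show their shared shift. The direction of these lists is thus relative to the other genes. Medians were 0.49 for 9 trypsinogens, 0.37 for 11 carboxypeptidases, amylases, and nucleases, 0.24 for 8 chymotrypsins and elastases, and 0.20 for 6 lipases and colipase. With 1 library left out these medians ran from 0.31 (without cKO saline 2) to 0.78 (without WT saline 1), from 0.21 (without WT saline 2) to 0.49, from 0.12 (without WT saline 2) to 0.35, and from 0.15 to 0.24, and the members positive were 28 of 34 without WT saline 2 and 31 of 34 without either cKO library. 

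The trypsinogens varied most among themselves. *Prss3* was at 209 and 165 in WT and 704 and 286 in cKO, a log2 difference of 1.27 (SE 0.45). *Gm10334* was at 8.28 and 5.04 in WT and 36.1 and 11.2 in cKO, a log2 difference of 1.63 (SE 0.61). For both genes the cKO libraries lay above the WT libraries and the spread within cKO was wide, so that without cKO saline 1 the differences were 0.62 and 0.78. *1810009J06Rik* reached 48.8 in cKO saline 2 and 8.28 to 11.3 in the other 3 libraries. The adjusted p of all 3 was 0.999 (limma, Benjamini-Hochberg adjustment). Trypsinogen genes are close paralogs in 1 cluster and may share reads, so differences between single members are uncertain.

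Across all 8715 genes that passed the filter, 0 were called different between cKO and WT (limma, Benjamini-Hochberg adjusted p under 0.05 and at least 2-fold; percent called 0% in each direction), and the smallest adjusted p was 0.453. There were 187 genes (2.15%) with an unadjusted p under 0.05, 96 higher in cKO (1.1%) and 91 lower (1.04%), and limma-voom on reads worked out from the RPKM also called 0 genes and gave 159. With a fold of at least 2 as well, there were 30 higher (0.344%) and 29 lower (0.333%). The groups did not overlap for 1193 genes higher in cKO (13.7%) and 1238 lower (14.2%). The median size of the log2 difference between the means of each genotype was 0.14. Between single libraries it was 0.22 in WT and 0.25 in cKO, which is not on the same footing, since a mean of 2 libraries varies less than 1 library. The 95% interval of the difference reached less than 1 log2 unit to each side for 7901 genes (90.7%), with a median reach of 0.54. An exact permutation test of 2 against 2 libraries cannot give a p under 0.33 and was not used.

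**Figure D2:**
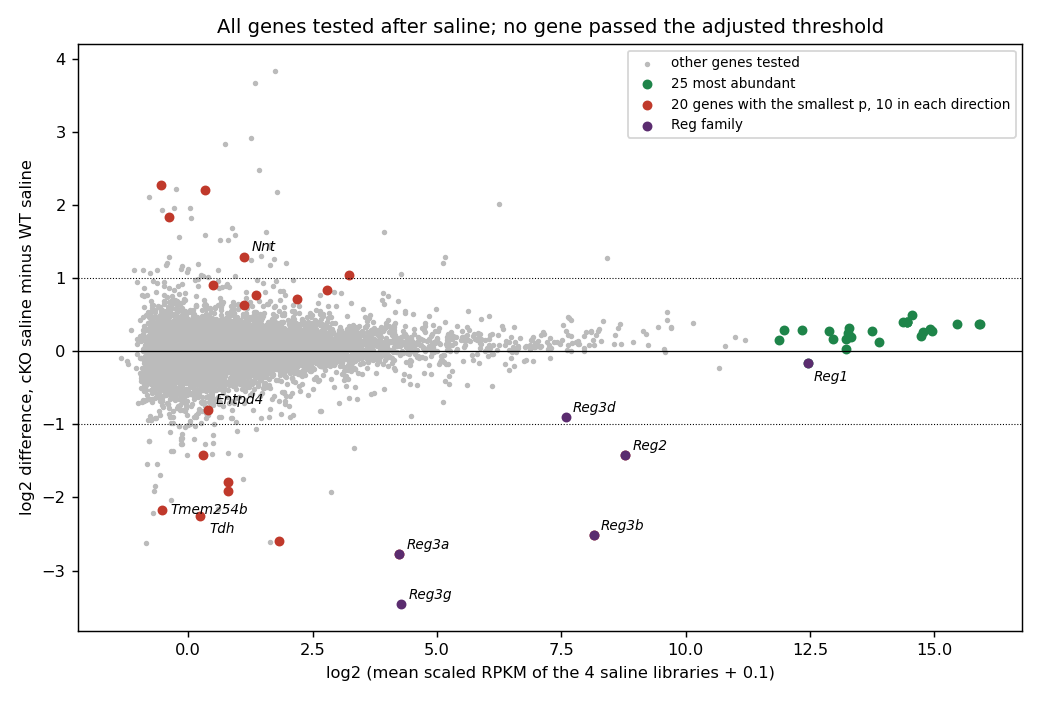
Log2 difference (cKO saline minus WT saline) against log2 of the mean scaled RPKM plus 0.1 for every gene tested, 1 point per gene, with dotted lines at 2-fold. *Reg3g*, *Reg3a*, *Reg3b*, and *Reg2* lie below the lower 2-fold line and *Reg3d* just above it at -0.90, and the 25 most abundant genes lie between -0.16 and 0.49.

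At a high level of expression, the genotypes were separated in the *Reg* family. These genes encode small secreted C-type lectins of the pancreas and gut. Pancreatic acinar cells make more of them after injury, and the REG3 proteins bind bacterial cell walls in the intestine. All 6 tested members were lower in cKO than in WT, and for 5 of them the libraries did not overlap, against 14.2% of all genes. The same 5 had an unadjusted p under 0.05 (1.04% of all genes in this direction), and 0 were called. The median log2 difference was -1.97, against 0.01 over all genes. All 6 were below 0 under every scaling tried, and *Reg1* alone changed sign, to 0.04, without WT saline 1.

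*Reg3b* was at 548 and 417 in WT and 94.0 and 73.7 in cKO. Its cKO libraries were close to each other and far below both WT libraries, and the log2 difference was -2.52 (SE 0.22, 95% interval -3.10 to -1.94, adjusted p = 0.453 by limma, Benjamini-Hochberg). Over 16 alternatives its adjusted p ran from 0.0225, with the RPKM as deposited, to 0.9998 (limma), and its difference ran from -2.80 to -2.33. *Reg2* was at 690 and 593 in WT and 244 and 233 in cKO, a log2 difference of -1.42 (SE 0.16, adjusted p = 0.591 from limma). *Reg3d* was at 274 and 226 in WT and 140 and 127 in cKO, a log2 difference of -0.90 (SE 0.17). All 3 genes had at least 2476 reads in each library, so counting error was small beside the gap between genotypes.

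*Reg3a* and *Reg3g* were lower in level. *Reg3a* was at 36.5 and 28.4 in WT and 7.23 and 2.92 in cKO (log2 difference -2.78, SE 0.45). *Reg3g* was at 28.9 and 40.7 in WT and 6.36 and 1.41 in cKO (log2 difference -3.46, SE 0.71). In both, cKO saline 1 was the higher of the cKO libraries, and this was the library with intestinal messages, whose part in these levels was not tested. Without that library the differences were -3.42 and -4.51, and without cKO saline 2 they were -2.15 and -2.42. *Reg4*, the last member of the list, was above 0 in cKO saline 1 alone (deposited RPKM 0.233) and was not tested.

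**Figure D3:**
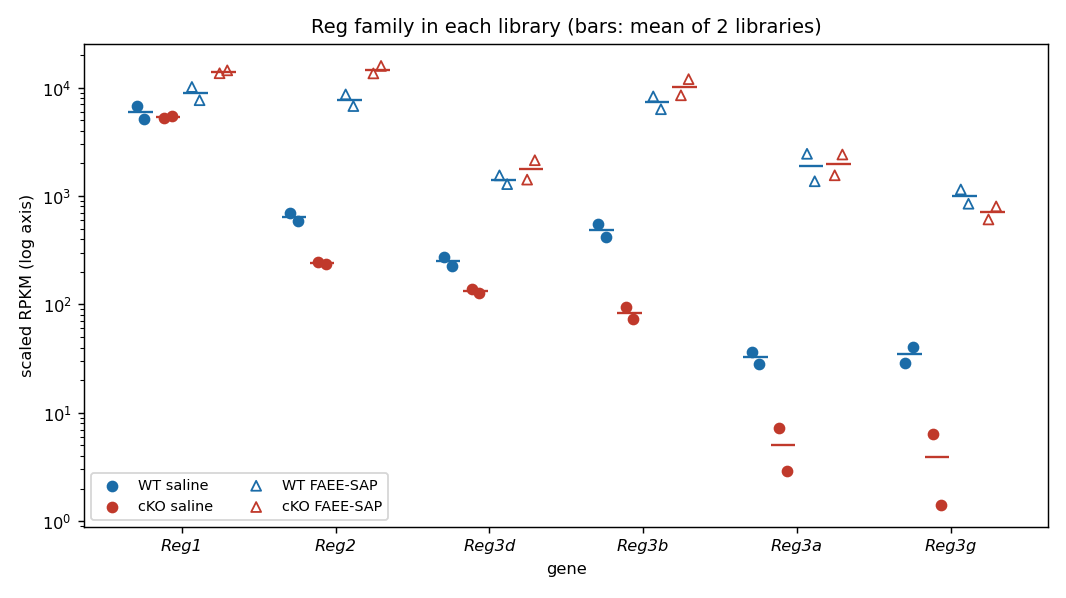
Scaled RPKM on a log axis of 6 Reg family genes, with 1 point per library and a bar at the mean of 2 libraries (filled circles for saline, open triangles for FAEE-SAP, blue for WT, red for cKO). Libraries were scaled within each treatment, so levels are compared between genotypes within a treatment. Reg3b after saline is at 94.0 and 73.7 in cKO and 548 and 417 in WT, while Reg1 overlaps, and after FAEE-SAP the difference of every gene shown but Reg3g has the opposite sign with the RPKM as deposited.

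The 6 genes lie in 1 cluster on chromosome 6, from *Reg3b* (chr6:78370657-78373466) to *Reg3g* (chr6:78466269-78468872), with *Reg3d*, *Reg3a*, *Reg2*, and *Reg1* (chr6:78422711-78428667) between them. *Reg1*, which lies inside the cluster and has the highest level, had a log2 difference of -0.16 (SE 0.18, 95% interval -0.61 to 0.30). The 250 bases before the transcription start were read from RefSeq on GRCm38.p6, where all 6 genes had an entry, and are shown for 3 members with a large gap between genotypes and for *Reg1*, whose libraries overlapped. Capitals mark 2 motifs, TTCNNNGAA (searched on both strands, palindromic) and TATAAA (searched on the gene strand), which do not overlap in these windows.
Reg3b, chr6:78370635-78370884, plus strand: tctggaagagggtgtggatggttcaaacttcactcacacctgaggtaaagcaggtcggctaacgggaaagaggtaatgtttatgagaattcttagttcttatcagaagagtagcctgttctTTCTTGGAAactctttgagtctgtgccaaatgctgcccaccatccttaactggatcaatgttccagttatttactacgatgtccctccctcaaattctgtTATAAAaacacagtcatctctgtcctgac
Reg3g, chr6:78468875-78469124, minus strand: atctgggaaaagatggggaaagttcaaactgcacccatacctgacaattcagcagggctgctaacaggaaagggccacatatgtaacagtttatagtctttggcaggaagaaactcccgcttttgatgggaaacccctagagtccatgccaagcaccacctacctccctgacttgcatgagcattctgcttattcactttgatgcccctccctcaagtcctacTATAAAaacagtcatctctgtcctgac
Reg2, chr6:78404905-78405154, plus strand: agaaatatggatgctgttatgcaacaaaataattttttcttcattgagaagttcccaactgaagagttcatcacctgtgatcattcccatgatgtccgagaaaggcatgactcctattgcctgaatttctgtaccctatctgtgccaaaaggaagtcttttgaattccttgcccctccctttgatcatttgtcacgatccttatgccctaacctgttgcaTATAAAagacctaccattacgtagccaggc
Reg1, chr6:78425733-78425982, plus strand: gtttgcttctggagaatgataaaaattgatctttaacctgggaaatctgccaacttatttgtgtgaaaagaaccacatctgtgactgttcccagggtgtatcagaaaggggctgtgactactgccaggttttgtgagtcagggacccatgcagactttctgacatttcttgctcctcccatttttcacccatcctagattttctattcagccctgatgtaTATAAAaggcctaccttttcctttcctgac
TATAAA was present in 4 of the 6 windows, those of *Reg1*, *Reg2*, *Reg3b*, and *Reg3g*, and in 7.59% of 32851 windows of this length. It began 27 to 30 bases before the start. TTCNNNGAA was present in the windows of *Reg3b* and *Reg3d* and in 7.02% of all windows. *Reg1* and *Reg2*, which differed in their genotype gap, each held TATAAA 30 bases before the start and no TTCNNNGAA. Matches of letters are a description of these windows and do not show a binding site.

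After FAEE-SAP, the log2 differences of *Reg1*, *Reg2*, *Reg3a*, *Reg3b*, and *Reg3d* changed sign with the scaling. The cKO libraries there had lower RPKM for most genes, so that the median log2 difference over all genes was -0.91 with the RPKM as deposited and -0.0078 after scaling. *Reg3b* was at 11904 and 8576 in WT and 6369 and 8226 in cKO as deposited, and at 8288 and 6313 in WT and 8486 and 11964 in cKO with the 4 libraries scaled to each other. *Reg2* had a log2 difference of -0.02 as deposited and of 0.94 after scaling (adjusted p = 0.0858 from limma), and *Reg1* one of -0.29 as deposited and 0.67 after scaling. *Reg3a* and *Reg3d* had differences of -0.88 and -0.66 as deposited, without overlap, and of 0.08 and 0.30 after scaling, where their libraries overlapped. These 5 genes were thus lower or level in cKO by the RPKM as deposited and higher after scaling. RPKM is itself relative to the reads of a library. In these libraries 10 genes held 42.0% and 43.8% of the reads in WT and 56.1% and 54.0% in cKO. Which of the scalings gives the direction was not tested. *Reg3g* was lower in cKO without overlap both ways, at 1148 and 848 in WT and 607 and 800.9 in cKO after scaling. Over all 8 libraries, the genotype difference with FAEE-SAP minus that with saline was 2.34 for *Reg2* (adjusted p = 0.0413 by limma, Benjamini-Hochberg over 11133 genes) and 1.68 with the RPKM as deposited (adjusted p = 0.0429, limma). For *Reg3b* it was 2.98 (adjusted p = 0.0567, limma) and 2.32 as deposited (adjusted p = 0.0429, limma). The saline values for which these genes are described enter both differences.

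A second set of separated values was in genes known to differ between C57BL/6 substrains, where 2 of 4 tested genes had an unadjusted p under 0.05 by limma (2.15% of all genes). *Nnt* encodes the mitochondrial nicotinamide nucleotide transhydrogenase, and part of the gene is deleted in C57BL/6J mice but not in C57BL/6N mice. It was at 1.16 and 1.18 in WT and 2.94 and 3.06 in cKO. The higher values were thus in cKO, whose floxed line was made on C57BL/6J, and the cause was not tested. Libraries within a genotype were almost equal, and the log2 difference was 1.29 (SE 0.15, 95% interval 0.91 to 1.67, adjusted p = 0.591 from limma). After FAEE-SAP it was at 0.587 and 0.466 in WT and 2.78 and 2.64 in cKO, a log2 difference of 2.17 that was called (adjusted p = 0.0255, limma), and of 1.299 with the RPKM as deposited (adjusted p = 0.0141, limma). A pair of annotated records share the name *Nnt* on chromosome 13, the longer at chr13:119335448-119408997, and the deposited value is not tied to 1 of them.

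*Entpd4*, which encodes a nucleotide-hydrolyzing enzyme of the Golgi and lysosome, was at 1.55 and 1.61 in WT and 0.885 and 0.842 in cKO (log2 difference -0.80, SE 0.15). After FAEE-SAP it was at 2.32 and 2.32 in WT and 1.48 and 1.74 in cKO (log2 difference -0.50, and -1.41 with the RPKM as deposited). *Cyfip2* and *Ide*, the other tested genes of the substrain list, differed by -0.23 (SE 0.17) and 0.06 (SE 0.15). *Wdfy1* and *Crb1* did not pass the filter, and the last member of the list was not analysed here. The C57BL/6 background of the WT mice could not be read from these values, since they are 1 number per gene.

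Genes of a repeated segment on chromosome 14 were also lower in cKO. *Tmem254a*, *Tmem254b*, and *Tmem254c* encode near-identical membrane proteins, and *Plac9b* lies among them. *Tmem254b* (chr14:26203369-26207041) was at 0.883 and 1.18 in WT and 0.194 and 0.109 in cKO, or about 48 and 71 reads against 12 and 6 (log2 difference -2.18, SE 0.31). *Tmem254a* was at 0.810 and 0.948 in WT and 0.194 and 0.127 in cKO (log2 difference -1.92, SE 0.29). *Tmem254c* was at 1.74 and 1.20 in WT and 0.497 and 0.924 in cKO, and *Plac9b* at 1.53 and 2.18 in WT and 1.04 and 0.477 in cKO. Their log2 differences were -0.98 and -1.25, and over 15 alternatives they ran from -1.38 to -0.53 and from -1.75 to -0.71. For all 4 genes both cKO libraries lay below both WT libraries (14.2% of all genes in this direction), and 0 were called. *Tmem254a* and *Tmem254b* passed the filter through the WT libraries alone, with a deposited RPKM of at most 0.170 in cKO. The filter thus set their lack of overlap before scaling, and the share of all genes is not an even comparison for them. The *Tmem254* genes are near-identical copies and may share reads. Of 43 annotated genes within 500 kb of the *Tmem254* genes, 11 were tested and 22 were at 0 in all 4 libraries. Of the 11, 7 were lower in cKO without overlap, which were these 4 and *Ppif*, *Zcchc24*, and *Dennd6a*, and *Slmap* was higher without overlap. The other 7 tested genes had smaller differences, from -0.32 for *Ppif*, a mitochondrial cyclophilin gene, and -0.25 for *Zcchc24* to 0.16 for *Slmap*. After FAEE-SAP the 4 genes were again lower in cKO, with log2 differences of -1.48 to -1.23 and adjusted p of 0.0626 to 0.139 (limma), and of -2.39 to -2.07 with the RPKM as deposited.

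The 10 genes with the smallest p in each direction, among those without overlap and with a mean of at least 1 in the higher group, had log2 differences of 0.63 to 2.27 and of -2.78 to -0.80. Besides *Nnt*, those higher in cKO included *Rdh11*, a retinol dehydrogenase gene (0.866 and 0.909 in WT, 1.63 and 1.86 in cKO). *Atg101*, a part of the complex that starts autophagy, was at 1.59 and 1.59 in WT and 2.49 and 2.57 in cKO (log2 difference 0.63, SE 0.15). *Cited2*, a transcriptional coregulator, was at 5.43 and 4.30 in WT and 8.08 and 9.39 in cKO. *Dynlt1b*, a dynein light chain gene with near copies, and *Gjb2*, the gap junction gene for connexin 26, had log2 differences of 1.05 (SE 0.23) and 0.72 (SE 0.16). Each of these 5 genes had an adjusted p of 0.999 (limma).

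On the lower side, *Tdh*, which encodes threonine dehydrogenase, was at 1.68 and 2.02 in WT and 0.220 and 0.416 in cKO (log2 difference -2.26, SE 0.29). *RP24-286J21.7* was at 2.14 and 3.02 in WT and 0.577 and 0.770 in cKO, and *Gm21887* at 3.44 and 1.92 in WT and 0.518 and 0.716 in cKO. *Tdh* did not keep the pattern after FAEE-SAP, where it was at 4.12 and 0.249 in WT and 2.23 and 1.17 in cKO.

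**Figure D4:**
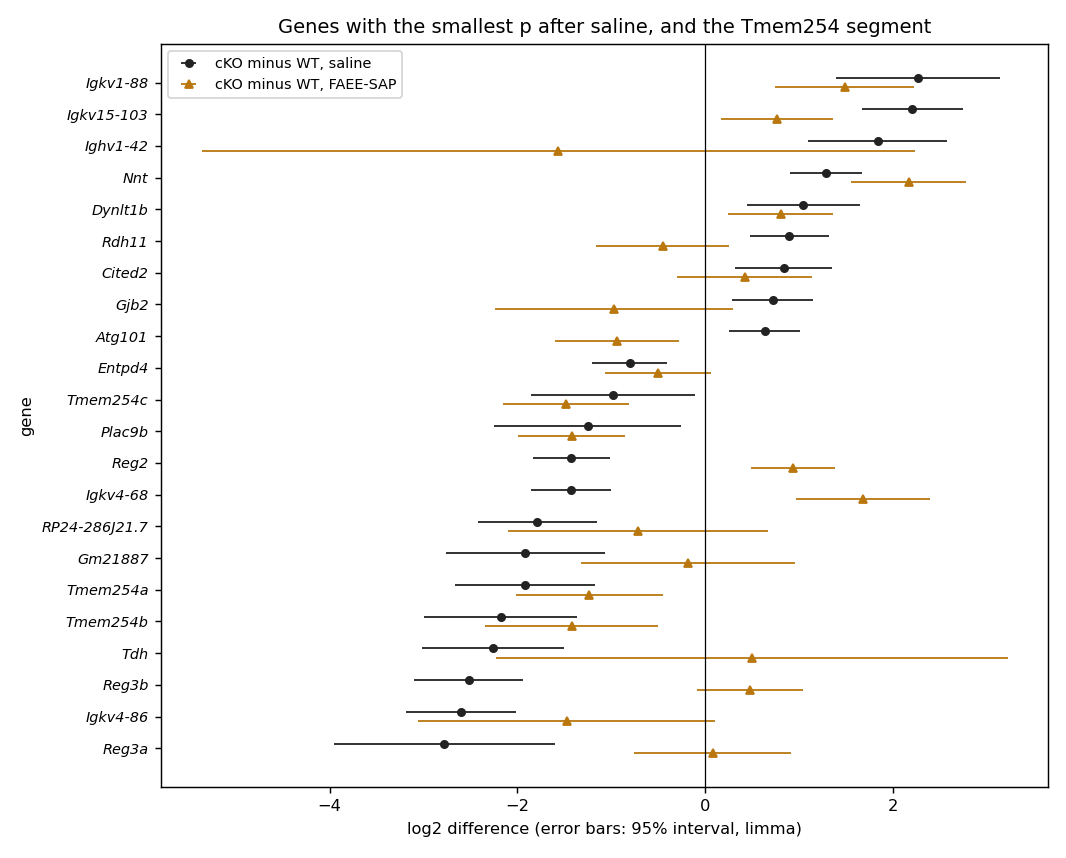
Log2 difference (cKO minus WT) after saline (black circles) and after FAEE-SAP (ochre triangles) with 95% intervals from limma, for genes with the smallest p after saline and 3 more genes of the Tmem254 segment. Nnt, Entpd4, and the Tmem254 genes lie on the same side of 0 under both treatments, while Reg2 and Igkv4-68 lie on opposite sides (for Reg2 after FAEE-SAP only with scaling, since it is at -0.02 with the RPKM as deposited).

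Of these 20 genes, 11 had the same sign after FAEE-SAP, where the libraries are separate from those used here (54.7% of all genes tested under both treatments). Of the 11, 5 had an unadjusted p under 0.05, and *Nnt* was called. The sign was opposite with an unadjusted p under 0.05 for 3 of the 20. With the RPKM as deposited there the count with the same sign was also 11, of which 7 were the same genes. Of all genes tested after FAEE-SAP, 49.3% had a positive and 50.7% a negative difference, 10.8% were higher and 8.69% lower in cKO at an unadjusted p under 0.05, and 0.863% were called higher and 0.409% lower. With the RPKM as deposited, 7.1% had a positive difference, 0.663% were called higher, and 39.6% were called lower. Of the same 20 genes, *Reg2* and *Igkv4-68* had a called difference between treatments. Of all 11133 genes, 0.0449% were called in the positive direction and 0.0269% in the negative, but the saline values that chose the 20 genes also enter this difference, so nothing is read from their number. *Atg101* was on the opposite side there, at 5.31 and 8.15 in WT and 3.26 and 3.52 in cKO. *Gjb2* and *Rdh11* were also on the opposite side, with log2 differences of -0.97 and -0.45, and these 3 genes were negative with the RPKM as deposited too.

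Of the 20 genes, 5 were immunoglobulin variable segments, each of which is used by some B cells and plasma cells. *Igkv15-103* was at 0.367 and 0.332 in WT and 2.26 and 1.72 in cKO, or about 4 and 4 reads against 28 and 19 (log2 difference 2.21, SE 0.21, adjusted p = 0.453 from limma). *Igkv4-86* was at 6.91 and 5.02 in WT and 0.801 and 0.989 in cKO (log2 difference -2.597, SE 0.23). *Igkv1-88* and *Ighv1-42* were higher in cKO by 2.27 and 1.84, and *Igkv4-68* lower by 1.43 (log2 difference -1.43). Variable segments differed within a genotype too, and the 88 that were tested had a median absolute log2 difference of 1.11 between the WT libraries and 0.98 between the cKO libraries. They made up 21 of the 187 genes with an unadjusted p under 0.05 (23.9% of segments, 1.92% of other genes), 15 higher and 6 lower in cKO. *Igkv15-103*, *Igkv1-88*, and *Ighv1-42* passed the filter through the cKO libraries alone, with a deposited RPKM of at most 0.390 in WT. Segments that enter in this way are part of the 23.9%, and their number was not counted, so nothing is read from that share.

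T cell messages were lower in cKO than in WT, but 1 WT library set the size. All 11 tested T cell markers had a negative log2 difference, with a median of -0.80 against 0.01 over all genes. The libraries did not overlap for 6 of them (14.2% of all genes in this direction), 3 had an unadjusted p under 0.05 (1.04% of all genes in this direction), and 0 were called. *Trac*, the T cell receptor alpha constant gene, was at 1.47 and 3.46 in WT and 0.842 and 0.763 in cKO. *Cd4*, the coreceptor of helper T cells, was at 0.836 and 1.58 in WT and 0.368 and 0.480 in cKO, and *Ccr7*, a homing receptor of naive T cells and dendritic cells, at 1.13 and 2.78 in WT and 0.643 and 0.584 in cKO. WT saline 2 was the highest library for each of the 3, and without it the differences of *Trac* and *Ccr7* were -0.80 and -0.79. The 14 markers summed to a scaled RPKM of 10.2 and 27.6 in WT and 9.19 and 8.00 in cKO, and the median was -1.50 without WT saline 1 and -0.38 without WT saline 2. Only 7 of the 11 markers passed the filter without WT saline 2, and 5 of these were negative. *Cd4* was below an RPKM of 0.5 in both cKO libraries and passed through WT alone, which set its lack of overlap before scaling. The shares of all genes are thus not an even comparison for this list.

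Genes of antigen presentation were also highest in WT saline 2, with summed scaled RPKM of 156 and 293 in WT and 161 and 140 in cKO. Of 19 tested genes for MHC molecules and peptide loading, 18 were negative, against 47.7% of all genes, 11 were lower without overlap (14.2% of all genes), 4 had an unadjusted p under 0.05 (1.04% of all genes in this direction), and 0 were called (median log2 difference -0.65). *H2-Q4*, a nonclassical class I gene, was at 3.91 and 5.27 in WT and 2.08 and 2.88 in cKO, and *Tap1*, a peptide transporter gene, at 0.879 and 1.36 in WT and 0.619 and 0.676 in cKO. *B2m*, the light chain gene of class I molecules, was at 30.8 and 51.8 in WT and 30.9 and 29.3 in cKO, where WT saline 1 was level with cKO. The median was -0.12 without WT saline 2 and -1.06 without WT saline 1. *Ccl21a*, a chemokine gene of lymph node stroma, was at 18.9 and 39.7 in WT and 13.3 and 16.6 in cKO and was thus highest in the same library. Of the 5 lymph node stroma markers, 4 were tested and 3 of these were negative. The exception was *Cxcl13*, a B cell chemoattractant gene, which was higher in cKO without overlap, at 2.12 and 2.49 in WT and 4.11 and 3.46 in cKO (log2 difference 0.69, SE 0.18). The 5 markers, led by *Ccl21a*, summed to 25.95 and 58.3 in WT and 24.9 and 23.4 in cKO. The part of lymphoid tissue in these values was not tested. After FAEE-SAP, *Trac*, *Cd4*, *H2-Q4*, and *B2m* overlapped between genotypes after scaling, with log2 differences of -0.10 to 0.19. With the RPKM as deposited they differed by -1.05 to -0.73, beside a median of -0.91 over all genes, and *Trac* alone overlapped.

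Interferon-stimulated genes had 12 of 14 negative values and a median of -0.30, which was 0.08 without WT saline 2, 0.06 without cKO saline 2, and -0.63 without cKO saline 1. B cell and plasma cell markers were mixed, with 8 of 13 positive and a median that ran from -0.01 without WT saline 1 to 0.73 without WT saline 2. *Ighg2c*, an immunoglobulin heavy chain constant gene, was at 0.207 and 1.66 in WT and 2.81 and 5.71 in cKO (log2 difference 2.48, SE 0.89, but 1.21 without WT saline 1 and 3.71 without WT saline 2), while *Ighd* was at 2.64 and 5.33 in WT and 1.66 and 2.32 in cKO. Macrophage, endothelial, fibroblast, ductal, and smooth muscle markers had medians of -0.11 to 0.13, which moved with single libraries. The fibroblast median was -0.37 without WT saline 1 and 0.37 without WT saline 2, and without WT saline 1 the endothelial median was -0.31 and the macrophage median -0.13. Of 5 tested adipocyte markers the median was 0.03, and it ran from -0.50 without WT saline 1 to 0.43 without WT saline 2. The mesothelial markers *Msln* and *Upk3b* differed by 0.02 (SE 0.19) and 0.98 (SE 0.39), the nerve marker *Mbp* by -0.15 (SE 0.17), the neutrophil marker *S100a9* by 0.01 (SE 0.51), and the liver marker *Alb* by 0.89 (SE 0.98). The 5 tested red blood cell markers had a median of 0.19, which was -0.96 without cKO saline 1 and 1.33 without cKO saline 2.

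Among 12 tested islet markers, the median log2 difference was -0.01, and -0.13 to 0.20 with 1 library left out. *Ppy*, the hormone of pancreatic polypeptide cells, was at 11.6 and 10.6 in WT and 1.45 and 5.44 in cKO (log2 difference -1.93, SE 0.61, adjusted p = 0.999 from limma). Its difference was -1.01 without cKO saline 1 and -2.85 without cKO saline 2. *Ins1*, *Gcg*, and *Sst* had differences of 0.24, 0.30, and 0.23, with intervals that included 0.

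Lists of acinar function had no direction that held under every setting. Of 15 acinar transcription factors, 10 had a positive difference and 0 an unadjusted p under 0.05, with a median of 0.10. There were 3 of 15 positive with the RPKM as deposited (median -0.16, beside -0.25 over all genes), and 7 of 15 without cKO saline 1 (median -0.02). *Ptf1a*, which directs acinar identity, was at 7.46 and 10.5 in WT and 16.4 and 10.7 in cKO (log2 difference 0.58, SE 0.29, and 0.27 to 0.88 over 16 alternatives). *Rbpjl*, its partner in the acinar complex, was at 11.2 and 16.6 in WT and 20.6 and 5.999 in cKO. Its lowest and highest values were both in cKO. Zymogen granule and exocytosis genes had a median of 0.04 over 19 members, which was -0.19 with the RPKM as deposited and -0.04 to 0.16 with 1 library left out. Secretagogue receptor and Gq signaling genes had a median of 0.16 over 11, which was -0.10 as deposited and -0.04 to 0.16 with 1 library left out, with the cholecystokinin receptor gene *Cckar* at 51.0 and 44.9 in WT and 42.3 and 44.9 in cKO.

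Calcium signals drive acinar secretion, and the inositol trisphosphate receptors release calcium from the endoplasmic reticulum. The median over 18 calcium release, entry, and clearance genes was 0.02, with 10 positive and 8 negative values and 0 with an unadjusted p under 0.05. Without cKO saline 2, 7 of 18 were positive (median -0.12). With the RPKM as deposited 1 of 18 was positive (median -0.25, 2 with an unadjusted p under 0.05), level with the median of -0.25 over all genes. *Itpr3* was at 1.56 and 1.61 in WT and 1.36 and 2.01 in cKO, and *Itpr2* at 1.04 and 1.11 in WT and 1.21 and 1.29 in cKO. Their log2 differences were 0.06 (SE 0.23) and 0.20 (SE 0.16). The largest difference of the list was that of *Orai2*, a calcium entry channel gene, at 3.67 and 3.85 in WT and 3.14 and 2.54 in cKO (log2 difference -0.40, SE 0.18).

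Glycolysis and glucose transport genes, the pathway that PFKFB3 stimulates, had a median of 0.05 over 19 tested members, with 11 positive and 8 negative. The positive members were 7 of 19 with quantile normalization and 6 of 19 without WT saline 1 (median -0.15). With the RPKM as deposited they were 2 of 19 (median -0.22), where the median over all genes was -0.25. *Hk2*, a hexokinase gene, was at 0.380 and 0.604 in WT and 0.756 and 0.911 in cKO (log2 difference 0.68, SE 0.27). The phosphofructokinase genes *Pfkm* and *Pfkl* differed by -0.07 and 0.19, and *Ldha*, which encodes a lactate dehydrogenase subunit, by 0.05. None had an unadjusted p under 0.05.

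Several lists varied between libraries of a genotype. Genes of the integrated stress response, the translational program that follows amino acid and endoplasmic reticulum stress, had a median log2 difference of 0.15 between genotypes, 0.44 for WT saline 2 minus WT saline 1, and -0.67 for cKO saline 2 minus cKO saline 1. The median between genotypes was -0.14 without cKO saline 1 and 0.48 without cKO saline 2. *Fgf21*, a stress hormone gene of acinar cells, was at 0.181 and 2.78 in WT and 5.47 and 0.715 in cKO. *Chac1*, which encodes an enzyme that degrades glutathione, was at 0.231 and 3.66 in WT and 4.66 and 0.560 in cKO. For both genes WT saline 2 and cKO saline 1 were high and the other 2 libraries were low, the same pairs that were most alike over all genes. *Nupr1*, a stress-induced chromatin protein gene, was at 182 and 151 in WT and 222 and 234 in cKO (log2 difference 0.46, SE 0.17).

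Immediate early and circadian genes had the opposite order within cKO. *Nr4a1*, an immediate early nuclear receptor gene, was at 0.556 and 0.854 in WT and 0.367 and 4.64 in cKO, and *Btg2*, an antiproliferative gene, at 9.59 and 10.2 in WT and 9.70 and 30.8 in cKO. Over 14 clock genes the median difference between genotypes was 0.04, with a range of -0.24 to 0.25 with 1 library left out. Medians over 18 immediate early genes were -0.08 between genotypes and 0.89 for cKO saline 2 minus cKO saline 1, and between genotypes 0.69 without cKO saline 1 and -0.46 without cKO saline 2. *Nfil3*, a repressor of the clock, was at 1.73 and 1.10 in WT and 2.32 and 5.45 in cKO (log2 difference 1.302, SE 0.46, and 0.70 without cKO saline 2). The metal-binding gene *Mt1* was at 318 and 168 in WT and 128 and 565 in cKO.

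Respiratory chain and ATP synthase genes had positive differences in 54 of 59 members (median 0.16), cytosolic ribosomal protein genes in 66 of 79 (median 0.08), and endoplasmic reticulum chaperone genes in 28 of 32 (median 0.12), with 0 of these at an unadjusted p under 0.05. cKO saline 1 was the higher of the cKO libraries in all 3 lists, with medians of -0.39, -0.26, and -0.33 for cKO saline 2 minus cKO saline 1. Without it the positive members were 23 of 59, 20 of 79, and 13 of 32. Without cKO saline 2 they were 56, 73, and 28, with medians of 0.33, 0.21, and 0.26. The direction of these lists thus turned on whether cKO saline 1 was included. With the RPKM as deposited the positive members were 13, 0, and 3, where the median over all genes was -0.25.

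**Figure D5:**
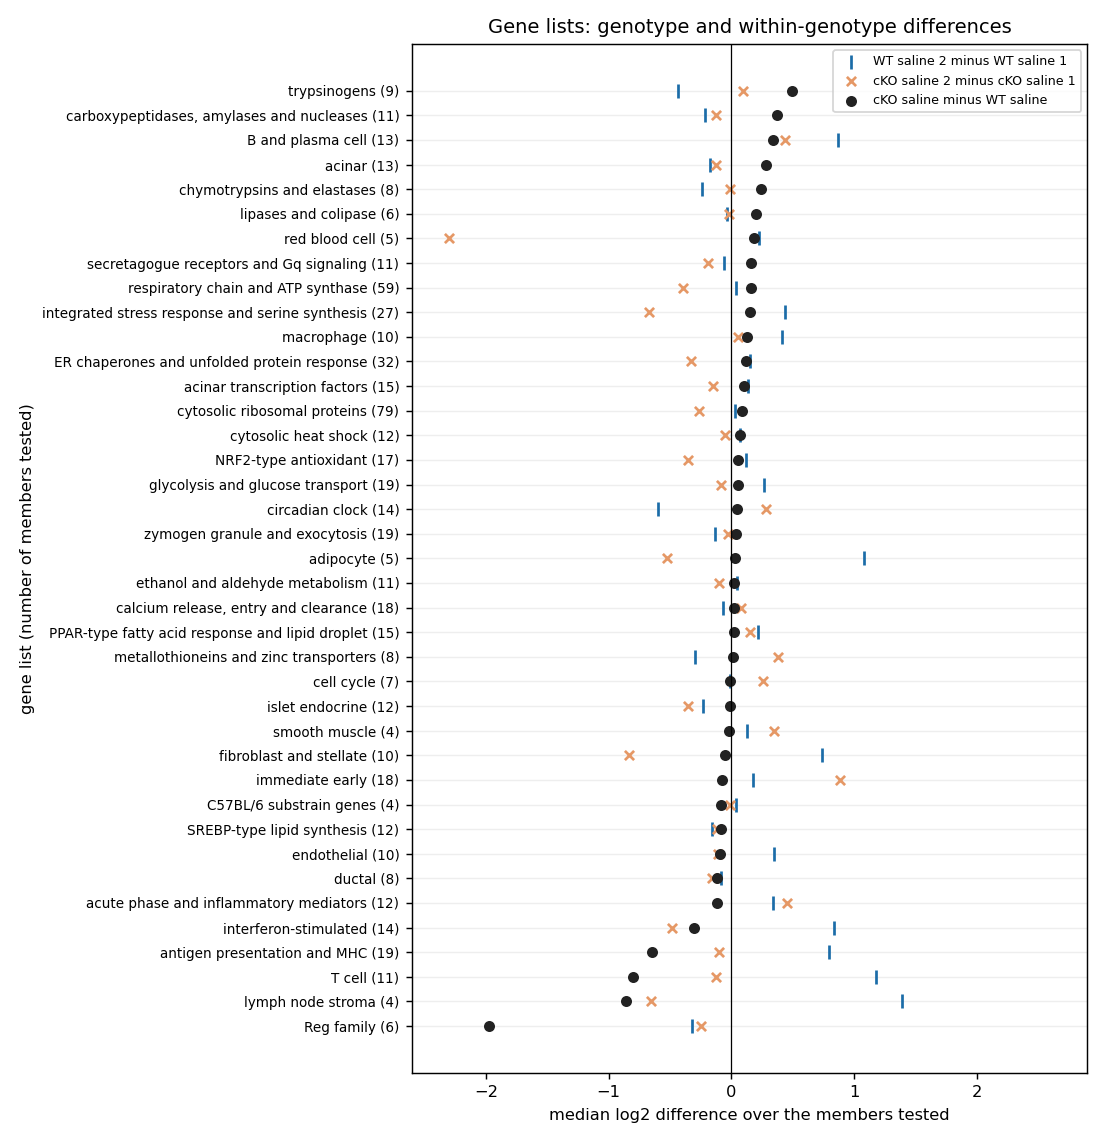
Median log2 difference after scaling over the tested members of each gene list with 4 or more of them, for cKO minus WT (black points), WT saline 2 minus WT saline 1 (blue bars), and cKO saline 2 minus cKO saline 1 (orange crosses). The Reg family lies at -1.97 between genotypes, with medians of -0.32 within WT and -0.24 within cKO. Single members differed more, such as Reg3a at -1.28 within cKO. The T cell list has a within-WT difference of 1.18 beside -0.80 between genotypes.

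A further 8 lists had medians of -0.12 to 0.07 between genotypes, and of -0.42 to 0.20 with 1 library left out. They were the acute phase, heat shock, antioxidant, metallothionein and zinc transporter, fatty acid response, lipid synthesis, ethanol metabolism, and cell cycle genes. Among them *Lrg1*, a leucine-rich glycoprotein gene induced in inflammation, was at 7.64 and 8.08 in WT and 3.61 and 5.41 in cKO (log2 difference -0.82, SE 0.24), and it was the 1 gene with an unadjusted p under 0.05. *Srebf1*, which encodes a regulator of lipid synthesis, was at 1.81 and 2.04 in WT and 1.46 and 1.41 in cKO, and *Fasn*, fatty acid synthase, at 2.22 and 1.68 in WT and 1.24 and 1.51 in cKO. Their log2 differences were -0.39 (SE 0.16) and -0.47 (SE 0.21). *Acot1*, an acyl-CoA thioesterase gene of the fatty acid response, was at 11.2 and 11.9 in WT and 14.1 and 23.4 in cKO (log2 difference 0.65, SE 0.28).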

How the data were processed

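Pancreatic RNA-Seq was available as 8 tables, 1 per library, of which the 4 saline libraries were compared. Per the study's methods, the libraries were directional and paired-end, reads were filtered with fastp and mapped to Ensembl GRCm38.p6 with CLC Genomics Workbench. The authors deposited RPKM for 48709 genes per library, and how reads were assigned to genes is not given in the sources used here. By symbol, 46319 genes (95.1%) matched GENCODE vM21. Reads worked out from RPKM were whole within 0.1 for 84.1% to 85.3% of values under 20 reads and summed to 104% to 106% of the totals, so they are approximate, and counting error alone is covered by them.

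A gene was kept if its RPKM reached 0.5 in 2 or more of the 4 libraries. A gene low in 1 genotype can pass through the other genotype alone, and its deposited values then cannot overlap. Libraries were scaled by the median of ratios, and a pseudocount of 0.1 was added before log2. Tests were by limma (version 3.58.1, R 4.3.3), with the prior variance following intensity and p-values adjusted by Benjamini-Hochberg. Differences on this scale understate those of low genes. A gene was called at an adjusted p under 0.05 and at least 2-fold. The scripts were tested on simulated data. FAEE-SAP libraries were scaled among themselves, and the difference between treatments was fitted over all 8 libraries. Genes were named by a rule: *Pfkfb3* and its list, the 25 most abundant, called genes, up to 10 with the smallest p per direction, called members and the 4 members with the largest difference in each list, and the genes around *Tmem254*. One of these genes is not reported here. Other list members given with values were chosen after their values were seen. The members and lists were chosen with earlier results of these data known. Replicate numbers are shared between the groups, but deviations of same-numbered libraries correlated at -0.395, and no source says that a number marks a shared batch. Alternatives were other scalings, filters, pseudocounts, thresholds, models, limma-voom on the worked-out reads, and each library left out.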

Additional observations from a re-analysis of the deposited data

Results flagged for a closer look

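In 5 of the 594 tested genes of the lists and named sets, against 8 of all 11133 genes (0.0449% positive and 0.0269% negative), the genotype difference was not the same after saline and after FAEE-SAP by the test of the difference itself over all 8 libraries (limma, Benjamini-Hochberg adjusted p under 0.05 and at least 2-fold). For *Clps*, the difference with FAEE-SAP minus that with saline was 2.86 (adjusted p = 0.00722, limma), with a genotype difference of 0.13 after saline and 2.9995 after FAEE-SAP. For *Tmed6*, a membrane trafficking gene of the zymogen granule list, it was 1.91 (0.18 after saline and 2.11 after FAEE-SAP). For *Reg2* it was 2.34 (-1.42 and 0.94, the latter -0.02 with the RPKM as deposited), and for *Igkv4-68* it was 3.11 (-1.43 and 1.69). For *Saa3*, an acute phase gene, it was -6.17 (0.62 and -5.56), and the saline libraries alone were at 1.13 and 3.45 in WT and 3.59 and 2.69 in cKO. The adjusted p of these 4 genes was 0.0413 (limma). With the RPKM as deposited the differences between treatments were 2.19, 1.24, 1.68, 2.45, and -6.83 in this order of genes, and the genotype differences after FAEE-SAP were 2.04 for *Clps*, 1.15 for *Tmed6*, 0.77 for *Igkv4-68*, and -6.49 for *Saa3*. *Reg2* and *Igkv4-68* were named for their saline values, which also enter this difference. Groups of 2 libraries were too small for a check of single outlying libraries.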

How the results depend on the processing

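Depth limits genes such as *Igkv15-103*, at about 4 reads in each WT library, and whether depth, the number of libraries, or their spread set the number of calls was not tested. No gene was called after saline under limma, and 0 were called in the model of all 8 libraries, by limma-voom, or with any 1 library left out (0 in each). Calls appeared with the RPKM as deposited, 2 lower in cKO (*Reg3b*, log2 difference -2.80, adjusted p = 0.0225, and *Igkv4-86*, -2.86, adjusted p = 0.0359, limma), and with quantile normalization, 1 lower (*Reg3b*, -2.68, adjusted p = 0.0353, limma), and the cause was not tested. With an unadjusted p, 30 were higher and 29 lower. Of the 25 most abundant genes, 24 were higher in cKO, and 23 to 25 (median 0.19 to 0.34) with 1 library left out. With the RPKM as deposited 13 were higher (median 0.0040, beside -0.25 over all genes). With quantile normalization 10 were higher, but this setting cannot show a shared shift of these genes.

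A replicate block called 0 genes after saline (125 with an unadjusted p under 0.05), and the crossed block, added after seeing the data, also called 0 (469). Because no gene was called after saline, the 20 named genes were followed. Those called after FAEE-SAP with the same sign numbered 1, and 4 both with the RPKM as deposited and with the replicate block. Those with a called difference between treatments numbered 2, against 6 with the RPKM as deposited and 0 with the replicate block. For 42 genes, 634 of 640 alternatives kept the sign. The exceptions were *Ctrb1* with quantile normalization (-0.030), *Pfkfb2* with the RPKM as deposited (-0.12), without WT saline 2 (-0.17), and without cKO saline 2 (-0.06), *Pfkfb3* without cKO saline 1 (0.26), and *Reg1* without WT saline 1 (0.036). With 1 library left out, they ran from -0.17 to 0.39 for *Pfkfb2*, from -0.88 to 0.26 for *Pfkfb3*, and from -0.36 to 0.036 for *Reg1*.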

Other observations

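Outside the lists, and chosen after their values were seen, a few genes with an unadjusted p under 0.05 and at least 2-fold had both cKO libraries above both WT libraries. *Rbp2*, which encodes an intestinal retinol binding protein, was at 1.001 and 0.162 in WT and 4.81 and 3.21 in cKO. *Alox15*, an arachidonate lipoxygenase gene, was at 0.0981 and 0.418 in WT and 1.505 and 0.858 in cKO. *Prg4*, a gene for a lubricating proteoglycan also made by mesothelium, was at 0.185 and 0.559 in WT and 1.92 and 1.07 in cKO. In the other direction, *Apol7c* was at 1.24 and 3.50 in WT and 0.666 and 0.216 in cKO, *Ltb*, the lymphotoxin beta gene, at 1.81 and 3.998 in WT and 1.32 and 0.672 in cKO, and *Relb*, a subunit of NF-kappaB, at 0.620 and 1.34 in WT and 0.358 and 0.385 in cKO. WT saline 2 was the highest library for these 3, as for the T cell markers. All 6 had an adjusted p of 0.999 (limma).

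Of the 187 genes with an unadjusted p under 0.05 after saline, 11 were called with the same sign after FAEE-SAP, where 0.863% of all genes were called higher and 0.409% lower. They were *Nnt*, the amylase gene *Amy2a1*, the trypsinogen genes *Prss3*, *Try10*, and *Gm10334*, the immunoglobulin genes *Ighg2c*, *Igkv4-74*, *Igkv4-57-1*, and *Ighv1-55*, the ficolin gene *Fcna*, and the chemokine gene *Ccl6*, and all 11 were higher in cKO. With the RPKM as deposited all 11 were again higher in cKO under both treatments, and 5 of them were called after FAEE-SAP. Of the genes with an unadjusted p under 0.05 after saline that were tested under both treatments, 119 of 183 (65.0%) had the same sign, against 54.7% of all 8653 genes tested under both.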
